A study of Schizosaccharomyces pombe with 12 samples.

Results

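Ribosome footprints of fission yeast (Schizosaccharomyces pombe) were compared between wild-type cells and delta4dus cells, 3 libraries against 3. All rows of the deposited footprint count table with a mean of at least 20 counts over the 6 libraries were taken, which gave 3821 of 5136 rows. The name delta4dus was read as a strain lacking dus1, dus2, dus3 and dus4, the dihydrouridine synthase genes; how the strain was made is not given in the sources used here. Wild-type cells carried none of these deletions per the labels, and both genotypes were grown to mid-log phase with no other treatment. Cells were collected by filtration without cycloheximide, lysates were digested with RNase I, and monosomes were taken from sucrose gradients, from whose RNA pieces of 28 to 32 nt were cut out of a gel. The labels name the libraries A, B and C and do not say that these were separate cultures, so p-values measure only the spread between these samples, which may be technical.

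Dihydrouridine is a reduced form of uridine that dihydrouridine synthases make mainly in tRNA, where it lies in the D loop. In a footprint library, RNase I trims mRNA down to the stretch that a ribosome covers, so the number of footprints on a gene reflects both how much of its mRNA there is and how densely ribosomes occupy it. The total RNA libraries of the same study are not used here, and these contributions cannot be told apart in the values below. Nor can a change in every cell be told apart from a change in the share of cells that make a given mRNA.

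The wild-type libraries held 601969 to 1725344 counts and the delta4dus libraries 1747608 to 2591755, of which 99.1 to 99.3% fell on the 3821 rows. Of the deleted genes, dus1 had 65, 25 and 38 counts in wild-type A, B and C and 0 in every delta4dus library, and dus3 had 149, 48 and 66 counts against 0, 1 and 1. The dus2 and dus4 rows lay below the threshold of 20 mean counts and still held 14 and 35 counts in all over the 3 delta4dus libraries. In the 3 wild-type libraries, which were shallower on the whole, they held 71 and 49. Their log2 fold changes were -3.11 and -1.34 (edgeR adjusted p = 2.3e-10 and 0.0019). Just inside the threshold lay akr1, set8 and csm1, with log2 fold changes of 0.32, -1.27 and -0.20, and just outside lay tls1, new4 and pvg2, with -0.90, 0.03 and 0.03. The marker genes ura4, leu1 and his3 did not pass the test, and ade6 was higher in delta4dus (log2 fold change 0.24 ± 0.08 SE), a call lost without wild-type A (edgeR adjusted p = 0.27) or delta4dus B (0.053). The mean over all 6 libraries set the threshold, so a gene that is scarce in wild-type cells could enter through its delta4dus counts alone.

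Values are given as CPM, counts scaled to a common library total after the TMM correction, and every change is a log2 fold change of delta4dus over wild type fitted by edgeR's quasi-likelihood test with Benjamini-Hochberg adjustment over all 4505 rows that passed its filter. At an adjusted p under 0.05, 624 of the 3821 genes rose (16.3%) and 548 fell (14.3%), while 2649 did not pass. Over all 4505 rows tested, 14.5% were higher and 14.1% lower. After all libraries were thinned to equal depth, 429 rose and 353 fell of 3610. Of the called genes, 68 rose (1.78% of the 3821) and 88 fell (2.3%) by at least 2-fold. Over all 4505 rows tested, 2.0% rose and 3.4% fell by that much. In 21.0% of the genes all 3 delta4dus libraries lay above all 3 wild-type libraries and in 19.5% below them, 40.5% together; over all rows tested these shares were 19.0% and 19.9%. The median change was -0.01, with the middle 50% of genes between -0.26 and 0.21. These directions are relative to the TMM scaling. With library totals as the only scaling, the median of the genes moved to -0.22 and the calls became 321 higher and 1260 lower, so that 20.3% of the calls were higher instead of 53.2%. Changes below are therefore changes relative to the typical gene, and an absolute loss or gain of footprints per cell was not measured.

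The share of genes called differed with how many footprints a gene had in wild-type cells. The genes were divided by mean wild-type CPM into 5 classes of 764 or 765. In the class with the fewest footprints (4.53 to 24.4 CPM) 57 genes rose and 29 fell, with a median change of 0.05. The threshold on the mean of all 6 libraries favoured rises over falls in this class. In the next class (24.4 to 40.5 CPM) 49 rose and 118 fell, with a median of -0.12. The middle class (40.5 to 69.9 CPM) had 58 rises and 152 falls and a median of -0.09. In the class of 70.0 to 162 CPM 113 genes rose and 143 fell, with a median of -0.04. In the class with the most footprints (163 to 25635 CPM) 347 rose and 106 fell, and the median was 0.13. Of these 347 rises, 136 were cytosolic ribosomal protein genes, and without ribosomal protein and chaperone genes the top class had a median of 0.06 with 195 rises and 105 falls. Across the 3821 genes Spearman's rank correlation between wild-type CPM and the change was 0.099, a weak relation among values that share the wild-type libraries. Without ribosomal protein and chaperone genes it was 0.014, and the medians of the lowest and highest classes were both 0.06. The top class took 81.4 to 82.5% of all counts in the wild-type libraries and 84.5 to 84.9% in the delta4dus libraries, so the genotypes did not overlap in that share. With library totals as the scaling, the medians of the lowest and highest classes were both below 0, at -0.15 and -0.07, and both still lay above the median of all genes (-0.22).

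**Figure D1:**
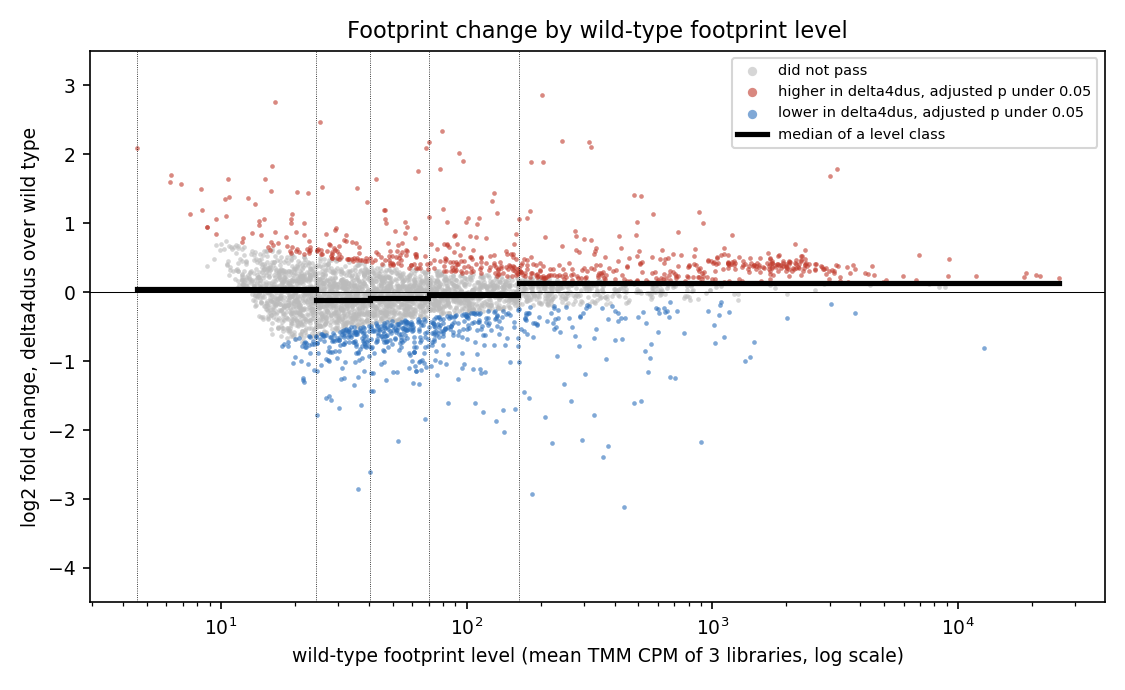
Change in footprints (log2 fold change, delta4dus over wild type) against mean wild-type CPM (log axis) for the 3821 genes, coloured by call, with the median of each of the 5 level classes drawn as a line. The class medians run 0.05, -0.12, -0.09, -0.04 and 0.13 from the lowest to the highest class, and the smallest called changes shrink as the level rises; dus1 and dus3 lie below the axis.

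The number of footprints also set what could be called. The median standard error of the log2 fold change fell from 0.26 in the lowest class to 0.064 in the highest, and the smallest change that passed the test fell from 0.55 to 0.13. Genes called higher had a median change of 1.92-fold in the lowest class and 1.28-fold in the highest, and genes called lower had a median of 1.71-fold and 1.36-fold. Changes of at least 2-fold numbered 25 rises and 6 falls in the lowest class, 4 and 20 in the second, 8 and 22 in the third, 14 and 20 in the fourth, and 17 and 20 in the highest. The threshold used the delta4dus counts too, so scarce genes that fell could drop below it and those that rose could pass it. The balance of rises and falls in the lowest class is therefore no result about scarce genes. Over all 4505 rows tested, rises of at least 2-fold numbered 90 and falls 153. The median of the lowest class did not keep its sign. It was -0.07 when genes were classed by the mean of all 6 libraries, -0.01 when they were classed by wild-type A and the change was taken from the other libraries, and -0.10 when the threshold of 20 counts was applied to the wild-type libraries alone. CPM does not correct for gene length. With the level taken per kb of coding length, the lowest and highest classes had medians of -0.16 and 0.18, and the rank correlation rose to 0.294.

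Coding length, taken from the RefSeq annotation for 3809 genes, followed the change more closely than wild-type CPM did. The rank correlations with the change were -0.368 for length, 0.099 for CPM and 0.294 for the level per kb. Genes were split into 10 classes of 377 to 385 by length. In the class with the shortest coding sequences (78 to 426 nt) the median change was 0.23, with 36.7% of genes higher and 4.46% lower. The class with the longest coding sequences (2805 to 14775 nt) had a median of -0.30, with 4.49% higher and 38.8% lower. The medians fell over the classes between, with 1 exception among neighbours (-0.02 and then -0.00 in the fifth and sixth classes). Spearman's rank correlation between coding length and the change was -0.368 over 3809 genes and -0.334 over the 3601 genes left without ribosomal proteins and chaperones. Length and wild-type CPM were themselves unrelated (rank correlation -0.00076). At equal CPM a longer gene has fewer footprints per kb, so length and footprint density are not separated here. Within each level class the long genes had lower medians than the short ones: in the highest class the medians of short, middle and long genes were 0.34, 0.08 and -0.01, and in the second class they were -0.01, -0.06 and -0.33. After thinning to equal depth the rank correlation was -0.349, and leaving out 1 library at a time gave -0.370 to -0.344.

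**Figure D2:**
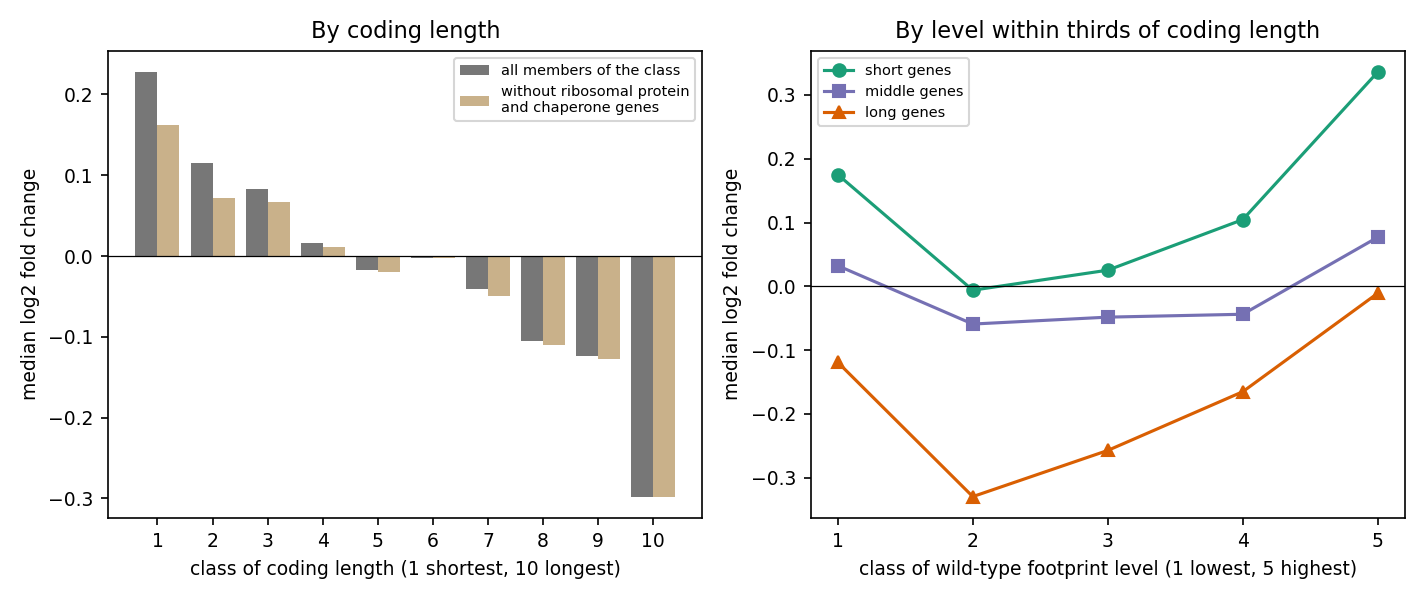
Left, median log2 fold change of footprints in each of 10 classes of genes by coding length, from 0.23 in the shortest to -0.30 in the longest. Right, median log2 fold change by wild-type level class for short, middle and long genes; the line of long genes lies below that of short genes in all 5 classes.

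No ribosomal protein gene was among the 30 largest rises. Among them were fes1, an exchange factor for Hsp70, aha1, an activator of Hsp90, isu1, the scaffold on which iron-sulfur clusters are built, tps3, a protein of the trehalose synthase family, str1, a siderophore-iron transporter, and cdm1, a subunit of DNA polymerase delta. Their log2 fold changes were 2.01, 1.88, 1.76, 1.78, 1.51 and 1.57. The rise of isu1 was seen in every library: 68.6, 74.96 and 47.1 CPM in wild-type A, B and C and 225, 207 and 221 CPM in delta4dus A, B and C (log2 fold change 1.76 ± 0.11 SE, edgeR adjusted p = 5.0e-24). The uncharacterised genes SPBC30B4.09 and SPBC31F10.17c (1.69 and 1.64) and rtc3, of the SBDS family (1.82), also rose. For rtc3 the libraries read 18.1, 15.6 and 14.5 CPM in wild-type A, B and C and 63.7, 56.5 and 58.2 CPM in delta4dus A, B and C. All wild-type libraries lay below all delta4dus libraries for each gene named in this paragraph, which was a condition of the choice. Over all 3821 genes, 40.5% had no overlap in either direction.

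Large falls, after the 12 strongest, included isp4, an oligopeptide transporter (-1.84), SPAC1039.01, an amino acid permease (-1.78), izh2, of the hemolysin-III family (-1.68), SPCC1672.01, a histidinol-phosphatase (-1.61), tco1 (-1.56) and SPAC1039.06, annotated with D-serine ammonia-lyase activity (-1.51). For isp4 the values were 62.6, 87.5 and 53.2 CPM in wild-type A, B and C and 22.5, 13.8 and 18.7 CPM in delta4dus A, B and C. Further falls were fsh2, a serine hydrolase (-1.87), the4, an acyl-CoA thioesterase (-2.18), uro1, uricase (-1.33), and gsf2, a flocculin of the cell surface (-1.23), the last chosen after its values were seen. The level of gsf2 fell from 669 ± 53.7 to 285 ± 38.2 CPM (mean ± SD, n = 3). Every named gene of this paragraph had all wild-type libraries above all delta4dus libraries, which was a condition of the choice except for gsf2.

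In the lowest class of wild-type level, where the threshold favoured rises, SPAC1F12.10c, an NADPH-hemoprotein reductase (1.65), and SPBPB2B2.05, a class I glutamine amidotransferase (2.09), rose. The lysine methyltransferase set8 (-1.27), mrx11 (-1.04) and the carbohydrate kinase SPAC16C9.01c (-1.30) fell. In the second class SPAC24H6.13, annotated as a calcium transporter (1.52), SPBC30D10.14, of the dienelactone hydrolase family (1.30), and aah1, a GPI-anchored glycosyl hydrolase (0.94), rose, and SPBC25B2.08 (-1.63) fell. In the middle class sro1 (1.63) and SPCC306.11 (1.19) rose and hob2 (-1.44) fell. The values of SPAC24H6.13 were 23.0, 26.5 and 27.8 CPM in wild-type A, B and C and 74.3, 75.1 and 67.3 CPM in delta4dus A, B and C (log2 fold change 1.52 ± 0.17 SE, edgeR adjusted p = 1.0e-11).

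Genes were then grouped by function into 58 lists, of which the wider ones are described here by how many of their members with at least 20 mean counts passed the test. For each list the median change of all genes in the same class of coding length is given where length could bear on it; the part of length in a list's change was not tested. With library totals as the scaling every list median was lower by about as much as the median of all genes (-0.22), so that lists with a median between 0 and 0.20 turned below 0; their values are then given in brackets. The 1908 genes in none of the lists had 230 rises and 288 falls and a median of -0.04. A list's share of all counts depends on the shares of the others. Lower shares in delta4dus without overlap were common, also in lists with medians above 0. Mean shares in wild type and delta4dus were 1.75 and 1.60% for initiation factors and 2.81 and 2.58% for amino acid biosynthesis. For the proteasome they were 0.801 and 0.764%.

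**Figure D3:**
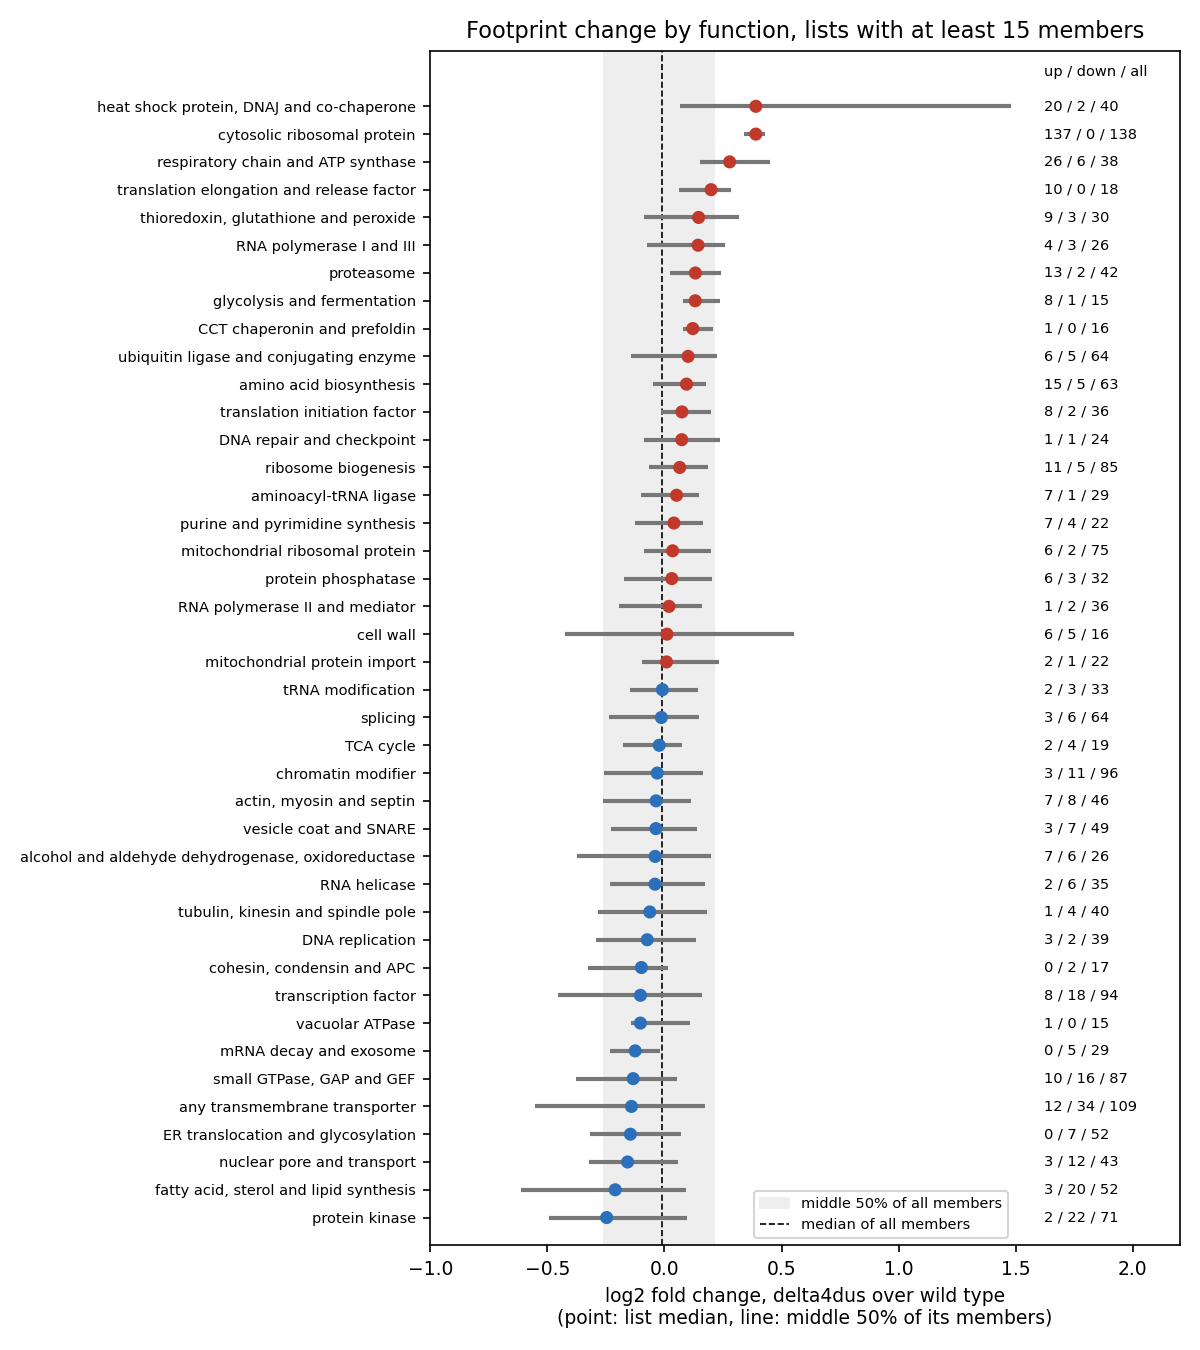
Median log2 fold change of footprints (points) with the middle 50% of members (bars) for lists of at least 15 members, with the numbers higher, lower and in all at the right. Ribosomal proteins and the heat shock list have the highest medians (both 0.39), and protein kinases (-0.25) and lipid synthesis (-0.21) have the lowest of the lists described.

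Cytosolic ribosomal proteins, the building blocks of the large and small subunits, rose as a group: 137 of 138 passed as higher and none as lower, with a median of 0.39 and the middle 50% between 0.34 and 0.43. The median over all 3821 genes was -0.01, and genes of similar coding length had a median of 0.12, or 0.072 without ribosomal proteins and chaperones. None of the 138 reached 2-fold. Their share of all counts, a scale that the TMM correction does not touch, was 26.4, 25.9 and 26.0% in wild-type A, B and C and 29.6, 29.3 and 29.8% in delta4dus A, B and C, so every delta4dus library lay above every wild-type library. Many of these proteins are encoded by near-identical gene pairs whose reads could have been split between copies, so single genes are less certain than the group. The largest rises included rpp202, of the P stalk (log2 fold change 0.75 ± 0.06 SE, edgeR adjusted p = 2.3e-16), and rpl2002 and rpl2001, which encode the same large-subunit protein eL20 (0.70 and 0.61). For rpl2002 the values were 2186, 2314 and 1973 CPM in wild-type A, B and C and 3529.7, 3334 and 3649 CPM in delta4dus A, B and C.

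Ribosomal protein genes of fission yeast are known for a promoter element, HomolD, with the core CAGTCACA. Promoters were read as the 300 bases before the annotated transcript start in the RefSeq ASM294v3 assembly, on both strands; the authors' counts were made on ASM294v2, and the files themselves hold no coordinates. This core occurred in 88 of 138 ribosomal protein promoters (63.8%) and in 2.63% of all 5102 promoters. The following stretches of 4 ribosomal protein genes that rose by a log2 fold change of 0.70, 0.62, 0.61 and 0.57 are shown to let the element be seen beside the values, with the element in capitals. They lie at chrI:3337673-3337704 (plus strand), chrI:3180029-3180060 (minus strand), chrI:1438290-1438321 (plus strand) and chrII:2780695-2780726 (minus strand), and the elements start 46, 45, 51 and 50 bases before the transcript start.
rpl2002: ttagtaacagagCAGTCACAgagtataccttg
rpl2301: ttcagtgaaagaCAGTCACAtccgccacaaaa
rpl2001: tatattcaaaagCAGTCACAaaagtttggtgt
rpl2701: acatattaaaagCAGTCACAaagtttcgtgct

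Other parts of the translation apparatus moved less. Of 18 elongation and release factors 10 rose and none fell, with a median of 0.20 [-0.01]. Among them was tif51, which encodes eIF5A, a factor that helps ribosomes through difficult peptide bonds and through termination: it read 1285, 1162 and 1143 CPM in wild-type A, B and C and 2192, 2123 and 2105 CPM in delta4dus A, B and C (log2 fold change 0.83 ± 0.05 SE, edgeR adjusted p = 5.5e-24). A similar gene annotated for eIF5A, tif512, rose by 0.36, and the EF-1 subunits tef5 and SPAC29A4.02c rose by 0.46 and 0.40. Initiation factors had 8 rises and 2 falls among 36 (median 0.07 [-0.13]), aminoacyl-tRNA ligases 7 and 1 among 29 (0.05 [-0.15]), ribosome biogenesis factors 11 and 5 among 85 (0.07 [-0.14]) and mitochondrial ribosomal proteins 6 and 2 among 75 (0.03 [-0.17]). The lysine ligase krs1 rose by 0.39 and the methionine ligase rar1 changed by -0.30, a fall that passed the test. Higher calls made up 22.2% of initiation factors, 24.1% of ligases, 12.9% of biogenesis factors and 8.0% of mitochondrial ribosomal proteins, beside 16.3% of all genes. In amino acid biosynthesis 15 of 63 rose and 5 fell (median 0.09 [-0.11]): the homocitrate synthase lys4 of the lysine pathway (0.40) and the cystathionine gamma-synthase met3 (0.63) rose, while the sulfite reductase subunit met10 (-0.58), ser3 of serine synthesis (-0.36) and the glutamine synthetase gln1 (-0.27) fell.

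Heat shock proteins, J proteins and their helpers, which fold proteins and hold or refold damaged ones, were spread widely, with the middle 50% between 0.07 and 1.48. Of 40 members 20 rose, 2 fell and 18 did not pass, with a median of 0.39 against -0.02 for genes of similar length, and 12 rose by at least 2-fold. The list took 1.59, 1.59 and 1.59% of counts in wild-type A, B and C and 3.37, 3.40 and 3.34% in delta4dus A, B and C, with no overlap. Beyond the strongest members, wos2, the p23 co-chaperone of Hsp90, read 472, 472 and 493 CPM in wild-type A, B and C and 1251, 1241 and 1317 CPM in delta4dus A, B and C (log2 fold change 1.41 ± 0.06 SE, edgeR adjusted p = 3.8e-35). The mitochondrial co-chaperonin hsp10 rose from 476, 489 and 517 CPM to 1035, 989 and 959 CPM (1.02). Smaller rises were those of the cytosolic J protein mas5 (0.83), the endoplasmic reticulum Hsp70 bip1 (0.82), the mitochondrial Hsp70 ssc1 (0.49) and the Hsp110 protein pss1 (0.40). For bip1 the libraries read 436, 429 and 390.3 CPM in wild-type A, B and C and 739, 759 and 732 CPM in delta4dus A, B and C, with no overlap. The membrane heat shock protein hsp9 fell (464, 384 and 433 CPM in wild-type A, B and C and 265, 253 and 292 CPM in delta4dus A, B and C; -0.68). The transcription factor hsf1, which drives heat shock genes in yeasts, was lower in the main test (-0.35 ± 0.13 SE), and this call was lost in 8 of 15 alternative settings, among them without wild-type A (edgeR adjusted p = 0.23), wild-type B (0.085), delta4dus A (0.15) or delta4dus C (0.054). The CCT ring and prefoldin, which fold actin and tubulin, had 1 rise and no fall among 16 (median 0.12 [-0.08]), and peptidyl-prolyl isomerases had 6 rises and no fall among 14 (0.09 [-0.12]). The paralogs ssa1 and ssa2 share long identical stretches, and their separate values are uncertain.

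Heat shock elements are built from GAA units in alternating orientation, and the pair GAANNTTC was searched in the same promoter windows on both strands. It occurred in 11.3% of all 5102 promoters, in 12 of the 20 risers of the heat shock list and in 2 of its 20 other members. Among the genes that rose by at least 2-fold it occurred in 26.5%, and in 19.6% of those outside the heat shock list. Among those that fell by at least 2-fold it occurred in 13.9%. The tail-to-tail pair TTCNNGAA, which can overlap the first, occurred in 9.76% of all promoters, in 5 of the 20 risers and in 3 of the 20 other members. It was as frequent in genes that rose by at least 2-fold (16.2%) as in those that fell by as much (15.2%). The stretches below, with GAANNTTC in capitals, belong to 6 of the strongest risers and lie at chrIII:2195578-2195609 (minus strand), chrIII:1263649-1263680 (minus strand), chrI:2298003-2298034 (minus strand), chrII:2148963-2148994 (plus strand), chrIII:2056972-2057003 (plus strand) and chrI:3891177-3891208 (minus strand) of ASM294v3. The elements start 63, 93, 58, 78, 59 and 57 bases before the transcript start, and the genes' log2 fold changes were 2.18, 2.17, 2.10, 1.88, 1.78 and 1.68. A match is a match of letters, and binding was not measured.
psi1: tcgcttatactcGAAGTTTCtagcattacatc
sti1: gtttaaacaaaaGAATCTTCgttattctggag
ssa1: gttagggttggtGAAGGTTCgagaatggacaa
aha1: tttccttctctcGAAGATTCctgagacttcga
ssa2: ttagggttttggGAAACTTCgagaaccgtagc
hsp90: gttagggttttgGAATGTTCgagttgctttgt

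**Figure D4:**
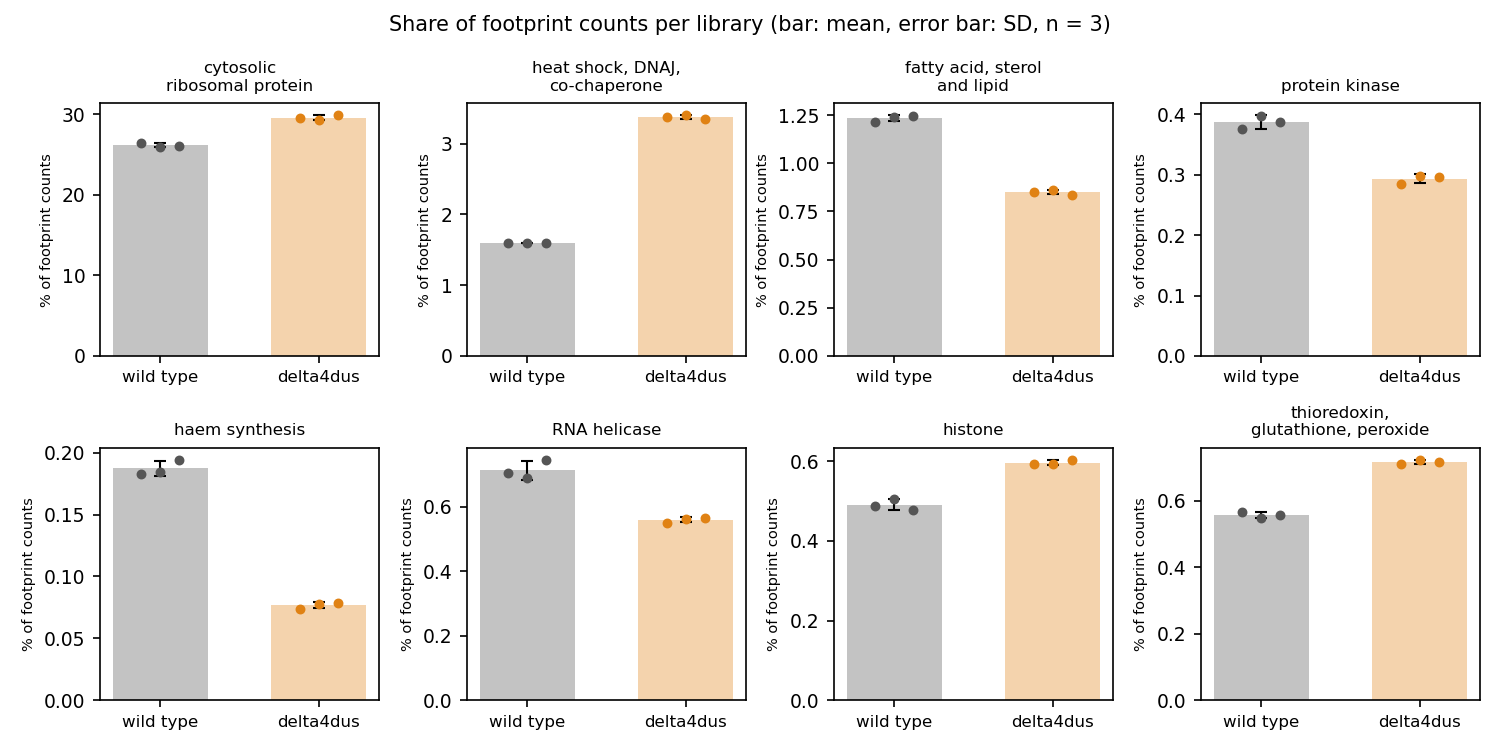
Share of all footprint counts (percent) taken by 8 lists in each library, with the mean and SD of the 3 libraries of each genotype. The heat shock list rose from 1.59% in all 3 wild-type libraries to 3.34 to 3.40% in delta4dus, and the haem list fell from 0.183 to 0.194% to 0.0740 to 0.0786%.

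Respiratory chain and ATP synthase subunits, which carry electrons to oxygen and make ATP in the inner mitochondrial membrane, had both rises and falls. Of 38 members 26 rose and 6 fell, with a median of 0.28. The coding sequences were short (median 403.5 nt), and all genes of that length had a median of 0.23, or 0.16 without ribosomal proteins and chaperones. Of the list 68.4% were higher and 15.8% lower, beside 36.7% and 4.46% of all genes of that length. The share of counts on the list overlapped between the genotypes (0.788, 0.779 and 0.789% in wild-type A, B and C and 0.777, 0.799 and 0.791% in delta4dus). Those of the cytochrome bc1 complex that rose included qcr8 (0.70), qcr10 (0.55) and the Rieske protein rip1, which read 159.7, 145 and 130.5 CPM in wild-type A, B and C and 214, 235 and 225 CPM in delta4dus A, B and C. Cytochrome c (cyc1, 0.42), the oxidase subunit cox13 (0.61) and the ATP synthase subunits atp7 and atp4 (0.54 and 0.49) rose as well, the last 3 named after their values were seen. Of succinate dehydrogenase, sdh2, the iron-sulfur subunit, fell (374, 411 and 341 CPM in wild-type A, B and C and 315, 275 and 270.4 CPM in delta4dus A, B and C; log2 fold change -0.39 ± 0.07 SE, edgeR adjusted p = 4.6e-06), as did sdh1 (-0.21), and emi5, its assembly protein, fell by more (-0.59). The fall of sdh1 was lost with DESeq2 and without wild-type A (edgeR adjusted p = 0.12). The oxidase-associated protein rcf2 read 239, 255 and 204 CPM in wild-type A, B and C and 127, 128 and 115 CPM in delta4dus A, B and C, a fall of -0.93 on the log2 scale. Glycolytic and fermentative enzymes had 8 rises and 1 fall among 15 (median 0.13 [-0.08]), among them pgk1 (0.48) and gpm1 (0.53), with the alcohol dehydrogenase adh4 lower (-0.98); the share of this list also overlapped between the genotypes.

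All 10 genes with IDs beginning SPMIT fell, with a median of -1.59 and a range of -2.03 to -0.73. The files and the reference table used here give these rows no name or product. Their share of counts was 0.230, 0.323 and 0.266% in wild-type A, B and C and 0.0722, 0.140 and 0.119% in delta4dus A, B and C, without overlap. Wild-type B and delta4dus B stood highest within their genotypes.

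Histone genes rose together: 8 of 10 passed as higher and none as lower, with a median of 0.51. Genes of similar, short coding length had a median of 0.23, or 0.16 without ribosomal proteins and chaperones. The share of counts was 0.488, 0.507 and 0.479% in wild-type A, B and C and 0.593, 0.592 and 0.604% in delta4dus, without overlap. The histone H2A gene hta1 read 432, 447 and 399.9 CPM in wild-type A, B and C and 677, 642 and 664 CPM in delta4dus A, B and C (log2 fold change 0.63 ± 0.06 SE, edgeR adjusted p = 9.1e-15), the H2B gene htb1 changed by 0.54 and the H4 gene hhf1 by 0.60. The H3 and H4 genes are near-identical copies, so the split of reads among copies is uncertain. In the chromatin modifier list 3 of 96 rose and 11 fell (median -0.03, which turned above 0 with 2 of the other scalings). These shares, 3.1% and 11.5%, lay below those of all genes (16.3% and 14.3%). The SAGA subunit tra1 (-0.59) and the remodeller ino80 (-0.56) fell, and rtt109, an acetyltransferase of histone H3, rose (1.06).

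Lipid synthesis lost footprints. Of 52 members 20 fell, 3 rose and 29 did not pass, with a median of -0.21 where genes of similar length had -0.00. The list took 1.22, 1.24 and 1.24% of counts in wild-type A, B and C and 0.850, 0.860 and 0.837% in delta4dus, with no overlap. The falls included all 3 hydroxylases and desaturases that modify the sphingoid base or fatty acid of sphingolipids, a set put together after the values were seen (median -1.45). The sphingosine hydroxylase sur2 read 349.5, 312 and 327 CPM in wild-type A, B and C and 95.5, 99.1 and 96.4 CPM in delta4dus A, B and C (log2 fold change -1.78 ± 0.08 SE, edgeR adjusted p = 3.9e-31), the dihydroceramide desaturase dsd1 166, 166 and 181 CPM in wild-type A, B and C and 66.8, 63.9 and 56.9 CPM in delta4dus A, B and C, and the hydroxylase scs7 601, 525 and 518 CPM in wild-type A, B and C and 245, 249 and 252 CPM in delta4dus A, B and C. Other enzymes of this branch that fell were lcb4, a sphingoid base kinase (-0.89), aur1, the inositol phosphorylceramide synthase (-0.65), and css1, a phospholipase C of inositol sphingolipids (-1.01). In sterol synthesis the falls included those of erg11 (-0.53) and erg25 (-0.37) besides the squalene monooxygenase erg1 (-0.96), the squalene synthase erg9 (-0.23) and the C-5 desaturase erg31; the call of erg9 was lost with DESeq2 and after thinning. The paralog of erg31, erg32, rose (48.3, 45.3 and 35.04 CPM in wild-type A, B and C and 59.9, 63.4 and 72.7 CPM in delta4dus A, B and C; 0.58). The rise of erg32 was lost with library totals as the scaling. The elongase elo1 (-0.61), the sterol transfer protein osh3 (-0.79) and the oxysterol-binding protein oss1 (-0.42) fell as well, and osh6 rose (0.52). Sre1, the membrane-bound transcription factor that in fission yeast switches on sterol and low-oxygen genes, fell from 114, 105 and 123 CPM to 51.8, 49.0 and 51.1 CPM (log2 fold change -1.17 ± 0.12 SE, edgeR adjusted p = 1.1e-12).

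Of 8 genes for haem synthesis 4 fell and none rose, with a median of -0.34. Besides hem13, the fall was seen for hem1, the first enzyme (287, 289 and 282 CPM in wild-type A, B and C and 159.8, 174 and 167 CPM in delta4dus A, B and C; log2 fold change -0.78 ± 0.08 SE, edgeR adjusted p = 5.1e-14), for hem15, the ferrochelatase that inserts iron (-1.05), and for hem12 (-0.45), a call lost without wild-type A (edgeR adjusted p = 0.058). The share of the list was 0.183, 0.185 and 0.194% in wild-type A, B and C and 0.0740, 0.0773 and 0.0786% in delta4dus, without overlap, and hem13 alone held much of it.

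Membrane transporters also leaned lower. Of 109 members 34 fell (31.2%) and 12 rose (11.0%), beside 14.3% and 16.3% of all genes, with a median of -0.14. Genes of similar length had a median of -0.04. The list's median wild-type level was 48.0 CPM and its median length 1614 nt. In the level class of 40.5 to 69.9 CPM, long genes (from 1584 nt) had a median of -0.26, with 32.5% lower. Genes of middle length in that class had a median of -0.05, with 13.2% lower. The parts of level and length were not tested. Of 5 transporters annotated for spermidine or spermine 4 fell, with a median of -1.16. Their share was 0.0468, 0.0557 and 0.0494% of counts in wild-type A, B and C against 0.0145, 0.0160 and 0.0147% in delta4dus. The group was collected after the values were seen, so these values only describe it and are no test of it. In this group mfs3 read 178, 208 and 168 CPM in wild-type A, B and C and 16.2, 28.2 and 25.8 CPM in delta4dus A, B and C, SPBC409.08 159, 194 and 186 CPM in wild-type A, B and C and 56.2, 63.4 and 61.1 CPM in delta4dus A, B and C and SPBC530.15c 52.7, 53.1 and 44.7 CPM in wild-type A, B and C and 24.4, 23.4 and 20.8 CPM in delta4dus A, B and C, and the genotypes did not overlap in any of these. Inositol carriers itr1 (-1.03) and itr2 (-0.64), the ammonium transporter amt1 (-1.06) and the drug efflux pump bfr1 (-0.89) fell, as did pho841 (-1.26), annotated for phosphate, whereas pho842 (0.70) rose. Paralogous transporters can share reads. Except for mfs3 and SPBC409.08, which were among the largest falls, these genes were named after their values were seen.

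The metal transporter list had 1 rise, 2 falls and 4 members that did not pass among 7 (median -0.09), and its share of counts overlapped between the genotypes. Outside that list, the subunits of the high-affinity copper transporter, ctr4 and ctr5, rose: ctr4 read 104, 102 and 84.6 CPM in wild-type A, B and C and 367, 391 and 354 CPM in delta4dus A, B and C (log2 fold change 1.91 ± 0.09 SE, edgeR adjusted p = 1.8e-31), and ctr5 changed by 1.14. Str1, the siderophore-iron transporter and the riser of the list, read 38.4, 37.5 and 31.4 CPM in wild-type A, B and C and 106, 98.6 and 107 CPM in delta4dus A, B and C, and the iron oxidase fio1, not in the list, rose too (0.60). The metallothionein zym1, a small protein that binds metals and no transporter, fell (-1.13), a call lost after thinning to equal depth. The zinc carriers of the list, zrt1 (-0.44) and zip2 (-0.71) fell, calls lost with DESeq2 and, for zrt1, without delta4dus C (edgeR adjusted p = 0.084).

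Among genes against oxidants, 9 of 30 rose and 3 fell (median 0.15 [-0.06]). The glutaredoxin grx1 read 303, 242 and 318 CPM in wild-type A, B and C and 439, 421 and 458 CPM in delta4dus A, B and C (log2 fold change 0.59 ± 0.07 SE, edgeR adjusted p = 4.2e-11). The superoxide dismutase sod1 fell (355, 328 and 309 CPM in wild-type A, B and C and 227, 196 and 211 CPM in delta4dus A, B and C; -0.67), as did the thioredoxin peroxidase bcp1 (-0.73). Of 7 genes for trehalose and glycerol, 3 rose and 2 fell: the trehalase ntp1 (0.94), which breaks trehalose down, and the glycerol-3-phosphate dehydrogenase gpd1 (0.63) rose besides tps1, while the gene annotated tps2 fell (28.5, 32.8 and 47.1 CPM in wild-type A, B and C and 17.5, 19.2 and 19.1 CPM in delta4dus A, B and C; -0.88).

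Of 71 entries of the protein kinase list 22 fell (31.0%) and 2 rose (2.82%), beside 14.3% and 16.3% of all genes. The median was -0.25. Their coding sequences were long (median 1710 nt), and genes of that length had a median of -0.10. The list's median wild-type level was 46.2 CPM. In the level class of 40.5 to 69.9 CPM, long genes (from 1584 nt) had a median of -0.26, with 32.5% lower. Genes of middle length in that class had a median of -0.05, with 13.2% lower. The parts of level and length in the list's change were not tested. The risers suc1 and skb15 are not kinases but a partner of the cell cycle kinase and a kinase inhibitor, and their calls were lost in 8 and 4 of the 15 alternative settings. Without wild-type C the edgeR adjusted p was 0.17 for suc1 and 0.060 for skb15, and that of suc1 was also above 0.05 without wild-type A (0.085), delta4dus A (0.12) or delta4dus C (0.053). The list took 0.375, 0.398 and 0.388% of counts in wild-type A, B and C and 0.285, 0.299 and 0.296% in delta4dus, without overlap, as in many other lists. The kinase ppk30, of the Ark1/Prk1 family that controls endocytosis in yeasts, read 75.7, 48.4 and 71.3 CPM in wild-type A, B and C and 29.3, 30.4 and 33.6 CPM in delta4dus A, B and C (log2 fold change -1.12 ± 0.16 SE, edgeR adjusted p = 2.9e-08). Srk1, which acts below the stress MAP kinase, fell (-0.84), as did ppk14 (-0.75), hal4, which in budding yeast regulates ion transport (-0.48), the S6 kinase homologue psk1 (-0.68) and tor1, the kinase of TOR complex 2. For tor1 the libraries read 30.7, 40.6 and 32.6 CPM in wild-type A, B and C and 19.98, 20.8 and 19.9 CPM in delta4dus A, B and C (log2 fold change -0.72 ± 0.21 SE, edgeR adjusted p = 0.0054). Psk1 and tor1 were named after their values were seen. The calls of the other 16 falls were each lost in at least 1 alternative setting. Small GTPases and their regulators had 10 rises (11.5%) and 16 falls (18.4%) among 87, near the 16.3% and 14.3% of all genes (median -0.13). Protein phosphatases had 6 rises (18.8%) and 3 falls (9.38%) among 32, also near those shares (median 0.03 [-0.17]). Among the GTPases, spi1, of nuclear transport (0.42), and cdc42, of cell polarity (0.39), rose, and the GTPase-activating protein SPAC18B11.11 fell (-0.98).

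Transcription factors had 8 rises (8.51%) and 18 falls (19.1%) among 94 (median -0.10), beside 16.3% and 14.3% of all genes. Atf1, the stress-activated bZIP factor, rose (58.2, 51.5 and 58.0 CPM in wild-type A, B and C and 103, 118 and 122 CPM in delta4dus A, B and C; 1.02), as did tos4 (0.85) and the forkhead factor fkh2 (0.55). Cbf12, of the CSL family, fell (30.7, 48.4 and 42.3 CPM in wild-type A, B and C and 3.12, 8.52 and 6.23 CPM in delta4dus A, B and C; -2.61), as did SPAC2H10.01 (-1.04) and fil1, the GATA factor of amino acid starvation (-0.48). The bZIP core TGACGT occurred in 6.04% of all promoters and in 11 of the 68 promoters of genes that rose by at least 2-fold (16.2%). It occurred in 7 of 79 promoters of genes that fell by as much (8.86%), and binding was not measured. In mRNA decay 5 of 29 fell (17.2%, near the 14.3% of all genes) and none rose (median -0.13). The falls included the CCR4-NOT subunits rcd1 (-0.73), ccr4 (-0.43) and not1 (-0.38). RNA helicases had 2 rises and 6 falls (17.1%, also near 14.3%) among 35, with mss116 (-1.05), dbp2 (-0.59) and sum3, a helicase of initiation (-0.37), lower. Nuclear pore and transport proteins had 3 rises and 12 falls (27.9%) among 43, with a median of -0.16; these are long genes (median 2868 nt), and all genes of that length had a median of -0.30. The nucleoporin nup132 read 77.9, 109 and 89.4 CPM in wild-type A, B and C and 55.6, 60.7 and 54.8 CPM in delta4dus A, B and C (-0.63), nup184 changed by -0.62, and the import adaptor cut15 by -0.53, whereas the export receptor crm1 (0.42) and the karyopherin nmd5 (0.51) rose. In secretion and glycosylation in the endoplasmic reticulum 7 of 52 fell, 13.5% beside 14.3% of all genes, and none rose (median -0.15). Proteasome subunits had 13 rises and 2 falls among 42 (median 0.13 [-0.07]), with the ATPase rpt6 higher (0.42) and SPCC18.17c, annotated as a regulatory subunit, lower (-0.60).

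The cell wall list had 6 rises and 5 falls among 16 (median 0.01 [-0.19]). In fission yeast a primary septum of linear glucan, flanked by secondary septa, is laid down between the daughters and is then digested so that they separate. The 4 glucan synthases measured, collected after the values were seen, all fell (median -0.49). All genes of similar, long coding length had a median of -0.30, and 38.8% of them were called lower. Bgs1, which makes the linear glucan of the primary septum, read 94.9, 102 and 105 CPM in wild-type A, B and C and 79.9, 68.7 and 59.4 CPM in delta4dus A, B and C (log2 fold change -0.54 ± 0.12 SE, edgeR adjusted p = 0.00037), bgs4, the main branched-glucan synthase, changed by -0.42, bgs3 by -0.52, and the alpha-glucan synthase ags1 by -0.45. No wild-type library overlapped a delta4dus library in any of the 4. Of 11 glucanases and glucanosyltransferases, also collected after the values were seen, 6 rose and 2 fell (median 0.43); their share of counts overlapped between the genotypes (0.213, 0.221 and 0.198% in wild-type A, B and C and 0.221, 0.225 and 0.229% in delta4dus). Eng1, the glucanase that cuts the primary septum, read 80.7, 82.8 and 76.1 CPM in wild-type A, B and C and 185, 182 and 185 CPM in delta4dus A, B and C (log2 fold change 1.21 ± 0.10 SE, edgeR adjusted p = 6.7e-17), and agn1, the alpha-glucanase that acts beside it, read 14.3, 18.7 and 12.1 CPM in wild-type A, B and C and 26.8, 33.6 and 31.2 CPM in delta4dus A, B and C. The glucanosyltransferases gas1 (0.43) and gas5 (0.70) and the glucanase exg1 (0.79) rose as well, and bgl2 fell (-0.80). The coding sequences of the synthases run from 5190 to 7233 nt, while those of eng1 and agn1 have 3051 and 1275 nt; the part of length in these changes was not tested.

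**Figure D5:**
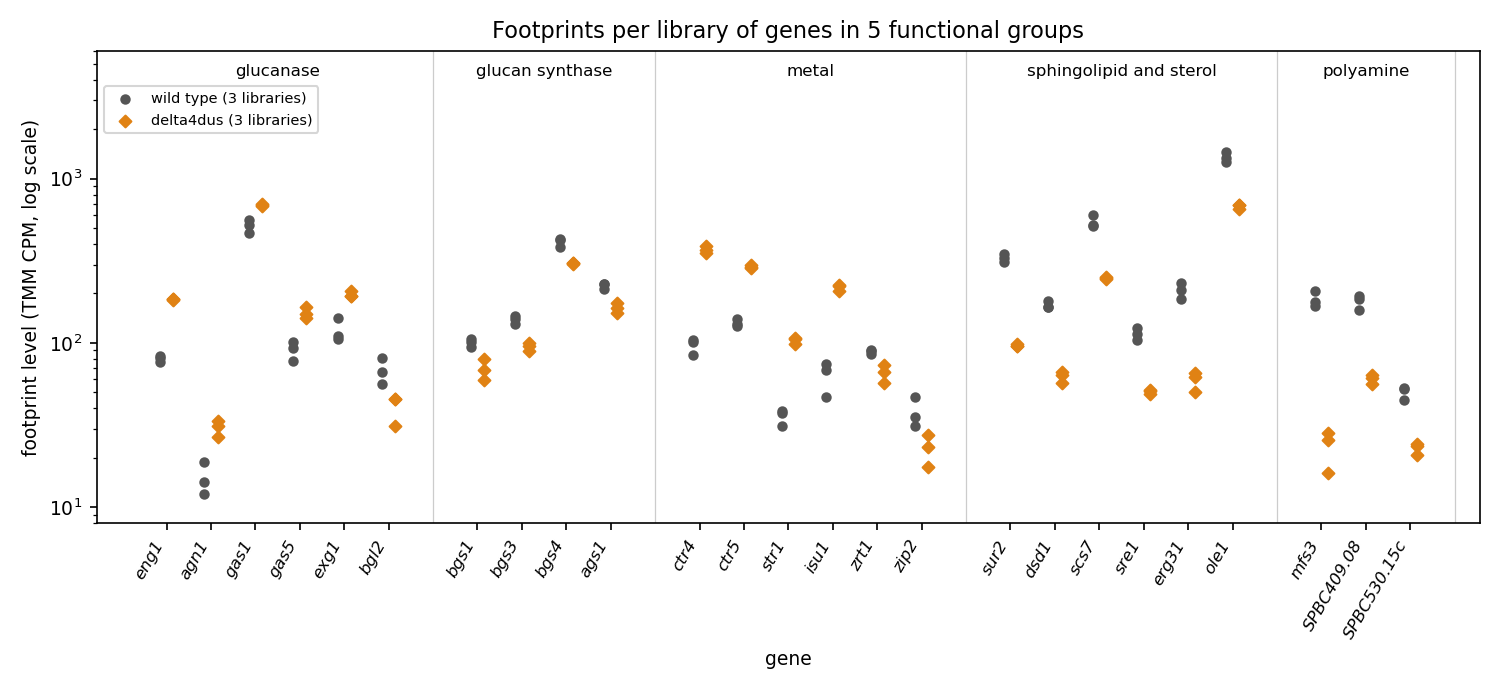
Footprint levels (CPM, log axis) of named genes in the 3 wild-type and 3 delta4dus libraries, grouped into glucanases and glucanosyltransferases, glucan synthases, metal genes, sphingolipid, sterol and fatty acid genes, and transporters annotated for polyamines. All delta4dus points lie above the wild-type points for eng1, agn1, gas1, gas5 and exg1 and below them for the 4 synthases.

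Every called change with a value in the authors' deposited table had the same sign there, which was the case for 1152 of 1152 genes. Both sets of values come from the footprints of this study and only called genes were compared, so this is no independent test. The authors' deposited table gave footprint fold changes that were higher than those above by a median of 0.09 on the log2 scale, and its scaling is not given in the sources used here.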

How the data were processed

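Ribosome footprints were measured in 6 libraries, 3 of wild-type and 3 of delta4dus cells; genotype and letter were taken from the labels, and 0 columns were left over. The deposited values are raw read counts per gene with no earlier normalization, per the file headers. Per the submitters' processing notes, Trimmomatic 0.36, Bowtie2 2.4, HISAT2 and featureCounts were used on ASM294v2; the strand setting of the counting is not given in the sources used here, so overlapping and antisense genes, like near-identical copies, can share reads. The authors' deposited table of log2 fold changes was compared only in sign and size.

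Counts were tested with edgeR 4.0.16 in R 4.3.3 (quasi-likelihood, TMM, default filterByExpr, two-sided), genotype as the only term, over the 4505 of 5136 rows that passed the filter, with Benjamini-Hochberg adjustment and a threshold of 0.05. The 3821 members passed the same filter. Depth limits precision: 3 counts equal 1.25 to 4.69 CPM, depending on the library, which covers counting error only. Replicates differed by more than sampling noise (chi-square per degree of freedom 1.45 to 1.66), so none were merged. Medians, shares and Spearman correlations across genes, which share libraries and are not independent, were computed in Python 3.11.15 with numpy 2.4.6, scipy 1.17.1 and pandas 2.3.3, and plots with matplotlib 3.10.9. The fit was tested on simulated data. Names, coding lengths and promoters came from RefSeq ASM294v3, matched by systematic ID for 5107 of 5136 rows.

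The members and lists were chosen with earlier results of these data known. The 58 lists were made from symbols and product words; 5 of them, and some clean-ups, were made after values were seen. Genes named are the 30 largest rises and falls, 5 in each direction per level class and 4 per list, among genes that passed and did not overlap; the remaining called members of 7 lists and a few single genes were added after values were seen. Alternatives were DESeq2 1.42.0, other scalings, filters, thinning, a block by letter, and leaving out each library. Some genes are not reported here.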

Additional observations from a re-analysis of the deposited data

How the results depend on the processing

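Main values are in brackets. The counts of genes higher [624] and lower [548] were 475 and 297 with DESeq2, 321 and 1260 with library totals, 429 and 353 after thinning to equal depth, 498 and 499 at a mean of at least 50 counts, 506 to 593 and 385 to 503 without 1 library, where the lowest counts came without wild-type A, and 702 and 484 with upper-quartile factors. With the letters as a replicate block 573 were higher and 479 lower; the letters were not taken to pair the libraries, since same-letter deviations correlated by 0.0734, 0.0555 and 0.0159 over 2530 genes, although each library correlated best with its own letter, a hint from the data only.

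The relation to wild-type level was the least stable result. For the rank correlation [0.099], the median of the highest class [0.13] and the median of the lowest class [0.05], the values were 0.144, 0.17 and -0.015 with the level from wild-type A, 0.223, 0.16 and -0.072 with the mean of all 6 libraries, and 0.294, 0.18 and -0.16 per kb of coding length. Without ribosomal protein and chaperone genes the rank correlation was 0.014 and the highest median 0.058. The highest and lowest medians were 0.17 and 0.082 with upper-quartile factors and -0.073 and -0.15 with library totals. The lowest median was -0.022 without a filter and 0.0028 at a mean of at least 50 counts, where the rank correlation was 0.140. Without 1 library the lowest median ran from 0.039 to 0.098. Choosing members by wild-type counts alone, an alternative added after the data were seen, gave a rank correlation of 0.233 and a lowest median of -0.098. The rank correlation with coding length [-0.368] was -0.334 without ribosomal protein and chaperone genes and -0.403 at a mean of at least 50 counts, both added after the data were seen.

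With library totals the list medians were 0.18 for ribosomal proteins [0.39], 0.18 for heat shock proteins [0.39], 0.074 for the respiratory list [0.28], -0.41 for lipid synthesis [-0.21] and -0.45 for protein kinases [-0.25]. At a mean of at least 50 counts they were 0.34 for ribosomal proteins, 0.23 for the respiratory list and -0.28 for lipid synthesis. The respiratory median was also 0.31 with upper-quartile factors, 0.32 with TMM without ribosomal protein and chaperone genes, and 0.23 after thinning. Against counts without ribosomal proteins the share differences, in percentage points, were 2.63 for heat shock proteins [1.78], 0.0575 for the respiratory list [0.0039], -0.464 for lipid synthesis [-0.384], -0.107 for kinases [-0.0936] and 0.000017 for the proteasome [-0.0373].

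Many list medians above 0 turned below it with library totals, and those that had stood above 0 by more than the spread between replicates were of RNA polymerases I and III (-0.061), initiation (-0.13), elongation (-0.0074), the proteasome (-0.073), ubiquitin enzymes (-0.10), amino acid biosynthesis (-0.11), glycolysis (-0.078), redox genes (-0.058) and CCT (-0.084), as did adf1 (-0.013), nrs1 (-0.017), tif1 (-0.018) and ura1 (-0.038). The chromatin median turned to 0.0019 with upper-quartile factors, 0.012 with TMM without ribosomal protein and chaperone genes and 0.017 after thinning, the actin median to 0.0075 with that TMM and, over the libraries left out in turn, to between -0.052 and 0.0037 (the last without delta4dus C), and the cohesin median to 0.0017 after thinning. The cause was not tested where the alternative's own scaling or smaller number of samples does not show it. Of 421 named genes 414 passed, 244 of these kept their call in all 15 settings, and 170 lost it in at least 1, 110 of them with DESeq2, 120 without 1 library and 27 with the replicate block.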

Other observations

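Some genes of the cell cycle rose. Spo12, a small nuclear protein of mitotic exit, read 14.3, 4.69 and 6.04 CPM in wild-type A, B and C and 25.6, 30.4 and 29.9 CPM in delta4dus A, B and C (log2 fold change 1.49 ± 0.27 SE, edgeR adjusted p = 6.0e-06), and cdt1, the factor that licenses replication origins, read 8.23, 15.6 and 8.46 CPM in wild-type A, B and C and 27.5, 21.3 and 27.4 CPM in delta4dus A, B and C. Ssb1, a subunit of replication factor A, changed by 0.70. The wild-type libraries lay below the delta4dus libraries in each, which was a condition of the choice. Cdt1 and ssb1 belong to the DNA replication list, of which 3 of 39 rose and 2 fell (median -0.07). Of the cohesin, condensin and APC genes 0 of 17 rose and 2 fell (-0.10, 0.0017 after thinning), and of the tubulin, kinesin and spindle pole genes 1 of 40 rose and 4 fell (-0.06). Higher and lower calls were rarer in each of these lists than over all genes (16.3% and 14.3%). The call of cdt1 was lost after thinning to equal depth (edgeR adjusted p = 0.062).

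Of RNA polymerase III, the subunit rpc37 rose (30.7, 37.5 and 29.0 CPM in wild-type A, B and C and 53.1, 58.1 and 57.7 CPM in delta4dus A, B and C; 0.83) and the large subunit rpc1 fell (72.4, 82.8 and 89.4 CPM in wild-type A, B and C and 57.4, 54.9 and 52.8 CPM in delta4dus A, B and C; -0.53), so that the genes of this complex did not move as one.

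The medians of genes with 1, 2, 3, 4 and at least 5 exons were -0.02, 0.03, 0.03, -0.01 and -0.09, and those of chromosomes I, II and III were -0.01, -0.00 and -0.01. Spearman's rank correlation between a codon's share of the coding sequence and the change ran from -0.244 for TCA to 0.213 for AAG across the codons. Without ribosomal protein and chaperone genes these 2 had -0.185 and 0.135, weak relations among genes that share libraries and base composition. The shares of TCA and AAG also correlated with wild-type level (-0.405 and 0.314) and with coding length (0.248 and -0.176). The parts of codons, level and length were not tested.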
